A study of Danio rerio with 12 samples.

Results

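Genes of voltage-gated sodium, potassium and calcium channels were examined in zebrafish of 5 days, the offspring of fish fed methylmercury (MeHg), an organic mercury compound that harms the nervous system. The members were genes whose symbol in the deposited tables begins with scn and a digit, kcna, kcnb, kcnc, kcnd, kcnh, kcnq, cacna or cacnb. They also had to reach a mean of at least 10 scaled counts (the authors' fragment counts divided by a size factor per library) over the 12 libraries. Of 68 genes with such a symbol, 54 reached that mean, among 18390 genes that did so and 32674 in the table. The fish were of the EK strain and of the F1 generation. Their parents were fed through life on diets with 0 ppm (control), 1 ppm, 3 ppm or 10 ppm MeHg. Each diet had 3 libraries, each made from 5 pooled whole embryos. Nothing in the labels says that the pools of 1 diet are from different clutches, so a p-value covers only pool-to-pool spread, which may be technical.

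Voltage-gated channels open when the membrane potential changes. Sodium channels carry the rapid upstroke of the action potential, potassium channels repolarise the cell and set its firing pattern, and calcium channels couple depolarisation to transmitter release, to contraction of heart and skeletal muscle, and to release at photoreceptor synapses. Pore-forming alpha subunits act with auxiliary subunits that set their number at the membrane and their gating. Zebrafish carry many of these genes as a pair of copies, named a and b, left by a whole-genome duplication in the ancestor of teleost fish.

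Depth recovered from the deposited values lay between 5.63 and 11.8 M (mega) fragments a library, lowest in 1 ppm library 3. The marker lists held 26 neuron, 25 skeletal muscle, 10 heart, 17 photoreceptor and 10 glial markers that reached the mean of 10 scaled counts. Other listed markers had no row or lay under that mean. In such bulk tissue, fewer cells of a type and less RNA per cell cannot be told apart. Libraries of the same diet differed in clock genes. A clock score, the first principal component of 38 tested clock genes, was positive in libraries 2 and 3 of the control and 1 ppm diets and negative in the other 8, which include all 3 ppm and 10 ppm libraries. The direction of several values given here turned with that score. This was examined for the medians over the members and for 36 results of single genes, and is stated beside them or in the last section. Counts by family and the other values were not recomputed with the score, so their directions may also turn.

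Levels per transcript length differed widely among the 54 channel genes. The highest was scn3b, a sodium channel beta subunit gene (ENSDARG00000062359), with a mean of 35.3 FPKM (fragments scaled for transcript length and library total) over the 12 libraries and a range of 27.2 to 48.1. It was followed by the calcium channel beta subunit gene cacnb4b (25.1 FPKM), the sodium channel beta subunit gene scn1ba (16.7 FPKM), the Kv3-type potassium channel gene kcnc3a (15.0 FPKM) and cacnb1, the calcium channel beta subunit gene of skeletal muscle (14.1 FPKM). These 5 genes made up 35.4% of the summed FPKM of all 54. Of these 5, 4 encode auxiliary subunits. The most abundant pore-forming genes after kcnc3a were cacna1sb (12.9 FPKM), which encodes the voltage sensor of skeletal muscle contraction, scn8aa (12.3 FPKM), a sodium channel gene of neurons, and scn4ab (10.4 FPKM), a sodium channel gene of skeletal muscle. In all, 16 members had a mean over 5 FPKM and 4 had a mean under 1 FPKM, the lowest being the ERG-type potassium channel gene kcnh2a (0.705 FPKM). The median member had 3.57 FPKM, against 8.13 FPKM for all tested genes.

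**Figure D1:**
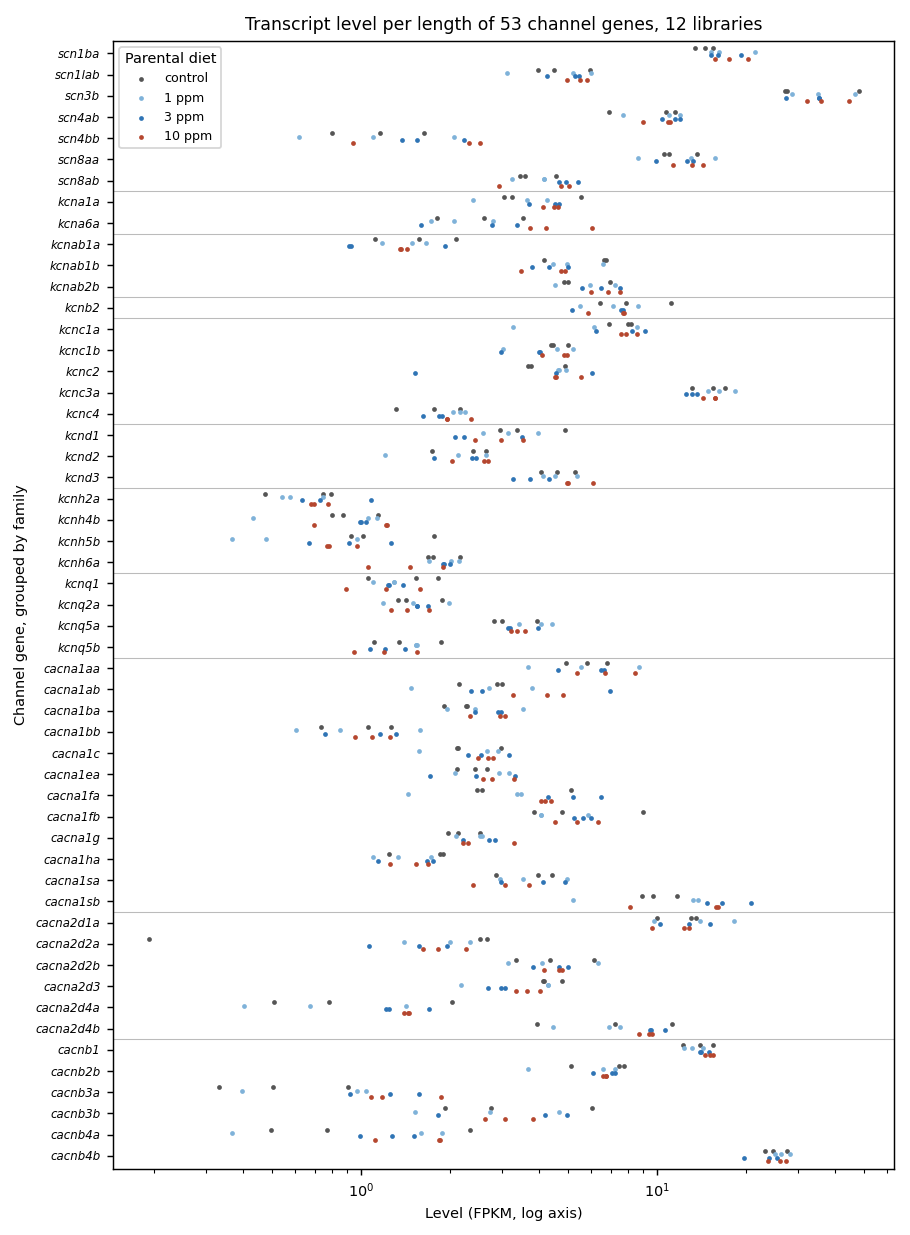
Level per transcript length (FPKM, log axis) of 53 of the 54 channel genes, grouped by family, with 1 point per library and colours for the 4 parental diets. Levels spread from 0.705 FPKM (kcnh2a) to 35.3 FPKM (scn3b) on average, and the points of the 4 diets lie among each other for most genes.

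The 14 genes under the minimum were mostly potassium channel genes. They included 7 of the 11 kcnh genes (the EAG, ELK and ERG families), kcnq2b and kcnq3, the calcium channel genes cacna1eb and cacna1i, and the sodium channel genes scn12aa and scn1a. Just under the minimum lay kcnh1b, kcnh1a and kcnh3, with means of 7.89, 7.92 and 8.46 scaled counts. Just over it lay cacnb3a and kcnh5b, with 10.6 and 12.3 scaled counts. All members of the kcna, kcnab, kcnb, kcnc, kcnd, cacna2d and cacnb families passed. A further 5 rows carry a channel symbol only in the separate gene names table and were not counted as members.

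For 12 genes both the a and the b copy were members, and in 10 of these pairs the same copy had the higher FPKM in all 12 libraries. The b copy was higher in 6 of the 10 and the a copy in 4. The widest gap was at the calcium channel beta subunit gene cacnb4, where the b copy had a median of 18.7 times the FPKM of the a copy, with a range of 9.98 to 71.6 over the libraries. The b copy also led at cacna2d4, an auxiliary calcium channel subunit gene of photoreceptors (median ratio 7.16, range 5.29 to 11.1), and at cacna1s of skeletal muscle (median ratio 3.38, range 1.76 to 5.16). The a copy led at the neuronal sodium channel gene scn8a, with a median ratio of a to b of 2.90 and a range of 2.14 to 3.87. The exceptions were cacna1a, the P/Q-type calcium channel gene of nerve terminals, where the a copy was higher in 11 libraries, and cacna1f, the calcium channel gene of photoreceptor synapses, where the b copy was higher in 11. By mean scaled count, which is not scaled for length, the order turned at cacna1f (a copy 100, b copy 72.3) and at kcnc1 (a copy 76.8, b copy 89.8). The other pairs kept their order.

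No channel gene passed at any parental dose. With limma on log2(scaled count + 1), adjusted over all 18390 genes at 0.05, 0 of 54 members were called at 1 ppm against control, where 0.0% of all tested genes were called. At 3 ppm against control 0 of 54 were called (0.0163% of all tested genes), at 10 ppm against control 0 (0.0%) and at 10 ppm against 3 ppm 0 (0.0163%). A test of any difference among the 4 diets called 0 members (0.0163% of all tested genes), and a slope over the ranked diets called 0 (0.0218%). The smallest adjusted p among members in limma was 1.00 at 1 ppm, 0.437 at 3 ppm and 0.822 at 10 ppm against control, and 1.00 at 10 ppm against 3 ppm. It was 0.566 for any difference and 0.370 for the slope. limma-voom on the same values, and on recovered fragments, also called 0 members in each of these comparisons, and at most 6 of all tested genes.

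Unadjusted p-values under 0.05 were likewise few among the members. At 1 ppm 1 of 54 had one (1.96% of all tested genes did), at 3 ppm 3 (10.4%), at 10 ppm 2 (5.71%) and at 10 ppm against 3 ppm 2 (3.77%). For any difference 3 had one (8.59%), and for the slope 2 (10.3%). The 95% intervals of the differences had a median half-width of 0.53 on the log2 scale, from 0.22 for cacnb1 to 1.42 for cacna2d2a. These intervals are not adjusted over the tested genes, so one that leaves out 0 need not pass. At 10 ppm against 3 ppm kcnd3 differed by 0.47 (interval 0.14 to 0.80) and did not pass. Differences of less than 0.5 on the log2 scale were found for 51 of 54 members at 1 ppm, 49 at 3 ppm and 48 at 10 ppm against control, and for 53 at 10 ppm against 3 ppm.

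**Figure D2:**
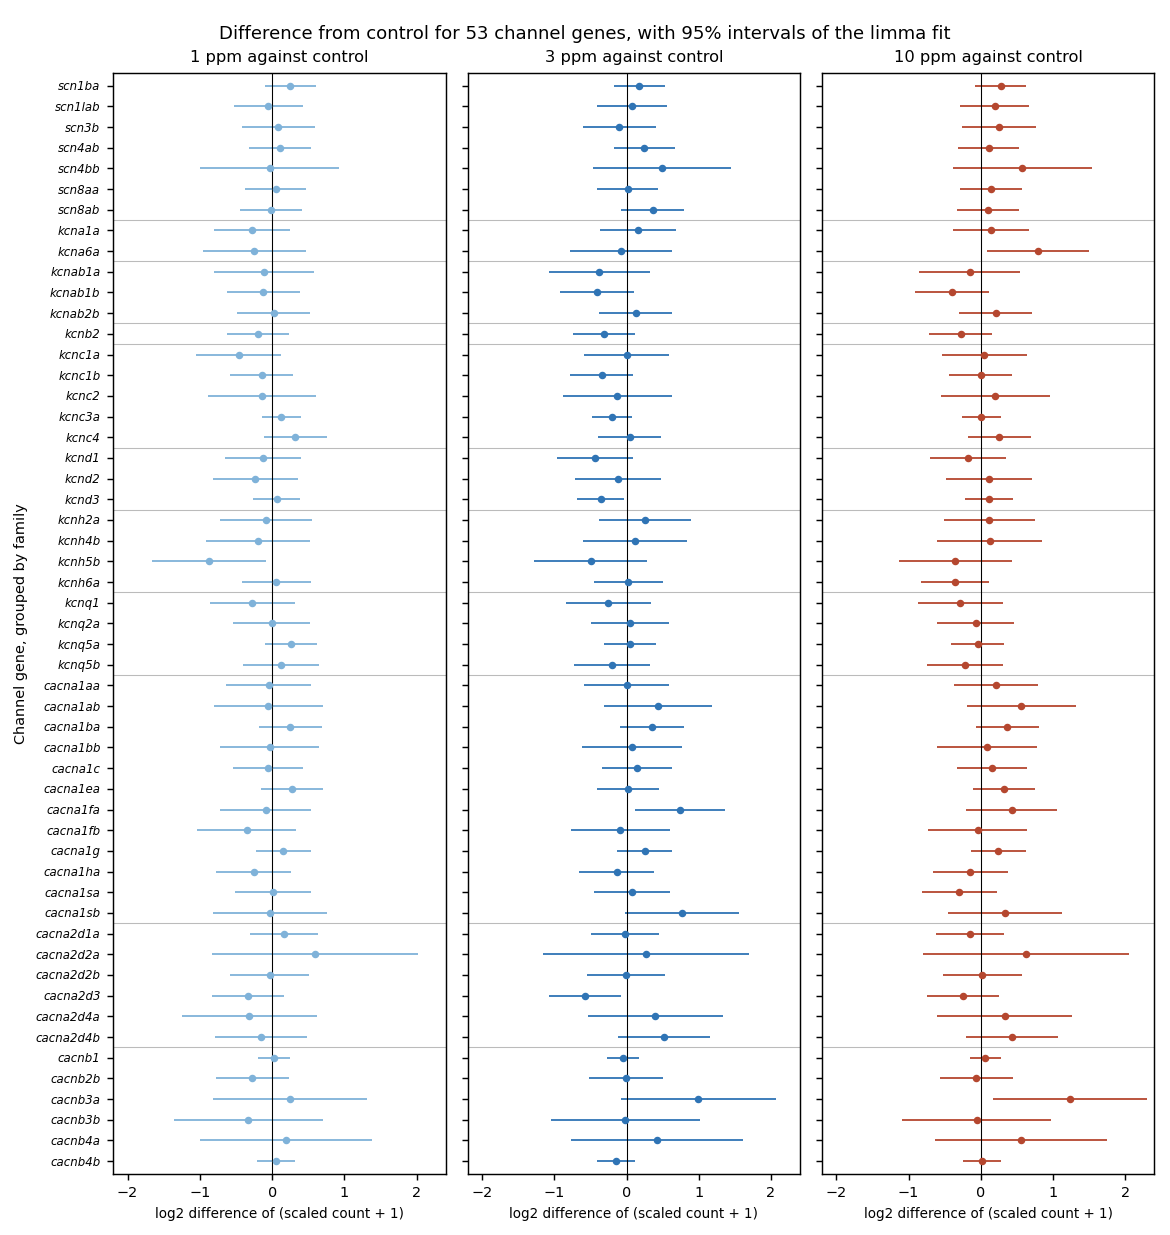
Difference of 53 channel genes from control at 1, 3 and 10 ppm, as log2 of (scaled count + 1), with points for the limma estimate and lines for its 95% interval. The interval leaves out 0 for 1 member at 1 ppm (kcnh5b), 3 at 3 ppm (cacna1fa, cacna2d3, kcnd3) and 2 at 10 ppm (cacnb3a, kcna6a), and no member passed after adjustment.

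At 1 ppm against control 21 members had a higher and 33 a lower mean, with a median difference of -0.04 on the log2 scale, against -0.0078 over all tested genes. At 3 ppm 30 were higher and 24 lower, with a median of 0.02 (-0.0041 over all tested genes). At 10 ppm 36 of 54 were higher and 18 lower, with a median of 0.11 (0.01 over all tested genes); that is 66.7% of members higher, against 52.5% of all tested genes. The median turned to -0.17 at 3 ppm and -0.08 at 10 ppm with the clock score as a covariate. It was -0.19 and -0.12 without the 4 libraries of positive clock score, which leaves only control library 1 as a control. The 10 ppm and 3 ppm libraries share the negative clock score. Between these diets 35 members were higher and 19 lower at 10 ppm, with a median of 0.04 (0.01 over all tested genes), and one of -0.015 with limma-voom, where the median over all tested genes was -0.05. The comparisons of 1, 3 and 10 ppm share their control libraries, and control library 1 held the highest value of 10 of the 54 members (18.5%, against 8.37% of all tested genes). Without it the medians were 0.05 at 1 ppm, 0.11 at 3 ppm and 0.25 at 10 ppm. The controls that remain then all have a positive clock score, and all 3 ppm and 10 ppm libraries a negative one. Diet and clock score cannot be told apart in those medians of 3 ppm and 10 ppm.

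Groups of libraries that do not overlap are a plainer view of the same values. At 1 ppm 0 members had all 3 libraries above or all 3 below the controls, against 6.03% of all tested genes (3.26% higher and 2.77% lower). At 3 ppm 5 of 54 did (17.7% of all tested genes). Of these, cacna1ba and cacna1sb were higher (8.27% of all tested genes were) and cacna2d3, kcnc1b and kcnd3 lower (9.45%). At 10 ppm 6 did (10.4%), with cacna1ba, cacna1ea, cacnb3a, kcna6a and scn1ba higher (5.55% of all tested genes were) and cacna2d3 lower (4.81%). At 10 ppm against 3 ppm 7 did (11.0% of all tested genes), with 0 lower (4.42%) and 7 higher (6.54%): cacna2d3, kcna6a, kcnc1b, kcnc3a, kcnc4, kcnd3 and scn3b. Leaving out a library makes separation of the remaining ones easier, so its count is read against all genes. Without control library 1, 21 members were separate at 3 ppm (38.9% of members and 39.6% of all tested genes), and 24 at 10 ppm (44.4% of members and 34.7% of all tested genes). The remaining controls have positive clock scores and the 3 ppm and 10 ppm libraries negative ones, so diet and score cannot be told apart there.

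Sodium channel genes showed small differences. All 7 members had a higher mean at 10 ppm than in controls, by 0.10 to 0.57 on the log2 scale, with a median of 0.19. Their summed level was 80.1 ± 13.3 FPKM for the control diet, 86.8 ± 14.7 FPKM for 1 ppm, 84.3 ± 8.58 FPKM for 3 ppm and 90.2 ± 3.38 FPKM for 10 ppm (SD, n = 3 each). The gap between 10 ppm and control was smaller than the SD of the control libraries. Control library 1 was the only control with the negative clock score of the 10 ppm libraries. By scaled count it lay above the 10 ppm mean in scn1lab, scn3b, scn8aa and scn8ab. It lay below that mean in scn1ba, scn4ab and scn4bb. The beta subunit gene scn1ba (ENSDARG00000060222) had 105, 110 and 96.8 scaled counts in controls and 108, 152 and 115 at 1 ppm. It had 105, 113 and 136 at 3 ppm and 143, 123 and 112 at 10 ppm. All 10 ppm libraries lay above all controls, the lowest of them by a few counts, and the difference of 0.27 (SE 0.17) did not pass (limma adjusted p = 0.851). The member of highest FPKM was scn3b, though its mean of 106 scaled counts was under the 464 of scn8aa. In controls scn3b had 139, 83.2 and 84.2 scaled counts, and at 1 ppm 111, 132 and 79.6. It had 74.4, 104 and 102 at 3 ppm, and 140, 112 and 105 at 10 ppm. All 10 ppm libraries lay above all 3 ppm libraries, while the controls spanned nearly the whole range.

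Zebrafish mutants are known for several sodium channel alpha subunit genes. The gene scn1lab, whose loss gives a seizure model of Dravet syndrome in larvae, ranged from 104 to 205 scaled counts and had log2 differences of -0.05, 0.08 and 0.19 at 1, 3 and 10 ppm from control. The gene scn8aa, needed for the larval touch response, ranged from 328 to 596 scaled counts, with differences of 0.05, 0.01 and 0.14. Both had their lowest value in 1 ppm library 3 and their highest in 1 ppm library 2. The gene scn4ab of skeletal muscle had 263, 420 and 449 scaled counts in controls, 428, 306 and 473 at 1 ppm, 444, 405 and 458 at 3 ppm, and 354, 421 and 417 at 10 ppm. Its lowest values were in control library 1 and 1 ppm library 2, and the diets overlapped. The b copy of the neuronal gene, scn8ab, had 151, 164 and 179 scaled counts at 3 ppm, against 152, 115 and 118 in controls. Only control library 1 reached the 3 ppm range, and the difference of 0.36 (SE 0.20) did not pass (limma adjusted p = 0.534). At 10 ppm scn8ab lay between 97.5 and 167 scaled counts and spanned nearly the range of all other libraries.

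Among Shaker-type (kcna) potassium channel genes, which set excitability in axons, kcna6a (ENSDARG00000046014) was highest at 10 ppm. It had 19.3, 25.9 and 13.4 scaled counts in controls, 20.4, 12.7 and 15.2 at 1 ppm, 24.3, 11.6 and 20.3 at 3 ppm, and 27.3, 43.6 and 31.3 at 10 ppm. All 10 ppm libraries lay above the other 9, while the 1 ppm, 3 ppm and control libraries overlapped. The log2 difference was 0.79 (SE 0.33; unadjusted p = 0.0311) at 10 ppm against control and 0.86 (SE 0.33; unadjusted p = 0.0204) at 10 ppm against 3 ppm, and neither passed in limma (adjusted p = 0.822 and 1.00). At these low counts, 10 ppm library 1 lay just above the highest control. The other member, kcna1a, ranged from 42.1 to 101 scaled counts, lowest in 1 ppm library 3 and highest in control library 1.

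The auxiliary kcnab genes encode cytoplasmic beta subunits of these channels. The gene kcnab1b had 70.3, 70.6 and 43.9 scaled counts in controls, 46.8, 52.4 and 69.0 at 1 ppm, 39.1, 52.2 and 45.1 at 3 ppm, and 36.4, 49.3 and 51.8 at 10 ppm. Controls 1 and 2 lay above all 3 ppm and 10 ppm libraries and control 3 lay among them; the slope of -0.15 per diet step (SE 0.07) did not pass (limma adjusted p = 0.488). The gene kcnab2b, which had the highest FPKM of the 3, had means between 44.6 and 51.0 scaled counts in the 4 diets. The Kv2-type delayed rectifier gene kcnb2 had 154, 152 and 154 scaled counts at 10 ppm, against 143, 235 and 193 in controls. The 10 ppm libraries lay inside the control range.

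The Kv3-type (kcnc) genes, whose channels allow fast firing, were a group of 5. All 5 had a higher mean at 10 ppm than at 3 ppm, by 0.05 to 0.35 on the log2 scale, as did 52.0% of all tested genes. Of these 5, 3 did not overlap (kcnc1b, kcnc3a and kcnc4). Over all 54 members 7 were separate and higher, against 6.54% of all tested genes. The gene kcnc3a (ENSDARG00000055855) had 762, 820 and 833 scaled counts at 10 ppm, against 667, 723 and 702 at 3 ppm. Its controls, at 691, 905 and 824, and its 1 ppm libraries, at 847, 797 and 989, lay mostly with or above the 10 ppm libraries. The difference between 10 ppm and 3 ppm was 0.21 (SE 0.13; limma adjusted p = 1.00). The gene kcnc1b (ENSDARG00000032959) had 61.9, 83.7 and 83.5 scaled counts at 3 ppm, against 93.1, 91.6 and 105 in controls, with a difference of -0.34 (SE 0.20; limma adjusted p = 0.555). At 10 ppm kcnc1b had 101, 103 and 85.9 scaled counts, close to the controls, while 1 ppm library 3 had 63.2. The gene kcnc1a had 63.8, 89.6 and 33.9 scaled counts at 1 ppm, against 83.5, 85.3 and 72.6 in controls, so that its difference of -0.46 (SE 0.27) rested largely on 1 ppm library 3. The gene kcnc4 had 53.6, 49.0 and 51.5 scaled counts at 1 ppm, against 51.8, 42.0 and 31.4 in controls; the groups overlapped through control library 1.

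All 3 Kv4-type (kcnd) genes, whose channels carry the rapidly inactivating A-type current, had a lower mean at 3 ppm than in controls (by 0.12 to 0.43 on the log2 scale) and a higher mean at 10 ppm than at 3 ppm (by 0.23 to 0.47). The most abundant, kcnd3 (ENSDARG00000056101), had 136, 161 and 125 scaled counts in controls, 134, 171 and 137 at 1 ppm, 95.8, 111 and 121 at 3 ppm, and 145, 163 and 147 at 10 ppm. The 3 ppm libraries lay below the other 9. The log2 difference was -0.36 (SE 0.15; unadjusted p = 0.0338; adjusted p = 0.451) at 3 ppm against control and 0.47 (SE 0.15; unadjusted p = 0.00807; adjusted p = 1.00) at 10 ppm against 3 ppm in limma. The value of 0.00807 was the smallest unadjusted p of any member in these 4 comparisons. At 10 ppm kcnd3 differed from control by 0.11 (SE 0.15).

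Genes of the EAG, ELK and ERG families (kcnh) held 3 members with a mean under 1 FPKM. The EAG-type gene kcnh5b (ENSDARG00000069117) had 12.8, 7.60 and 5.85 scaled counts at 1 ppm, against 22.8, 12.6 and 14.3 in controls. Only 1 ppm library 1 reached the control range, and the difference of -0.87 (SE 0.37; unadjusted p = 0.0318) did not pass (limma adjusted p = 1.00). The 3 ppm and 10 ppm libraries of kcnh5b lay between 7.37 and 15.5 scaled counts, inside or under the control range. The gene kcnh6a, which encodes the ERG channel of the zebrafish heart and is mutated in lines with slow cardiac repolarisation, had 27.3, 50.9 and 38.7 scaled counts at 10 ppm, against 45.7, 55.2 and 45.7 in controls. Its 3 ppm libraries lay close together at 49.4, 50.9 and 48.5, and the difference between 10 ppm and 3 ppm of -0.38 (SE 0.22) did not pass (limma adjusted p = 1.00). The other ERG-type gene, kcnh2a, ranged from 9.67 to 22.0 scaled counts, with its lowest value in control library 1 and its highest in 3 ppm library 3.

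The kcnq genes encode channels of the neuronal M-current and, for kcnq1, a channel of heart and epithelia. All 4 members had a lower mean at 10 ppm than in controls, by 0.05 to 0.29 on the log2 scale, and a lower mean at 10 ppm than at 3 ppm, by 0.01 to 0.12. Their summed level was 7.31 ± 0.066 FPKM at 10 ppm and 7.70 ± 1.57 FPKM in controls (SD, n = 3 each). Control library 1, the only control of negative clock score, lay below the 10 ppm mean of scaled counts in kcnq1, kcnq2a and kcnq5a. In kcnq5b it lay above. The most abundant, kcnq5a, had 176, 148 and 201 scaled counts at 1 ppm, against 128, 134 and 177 in controls, which overlap (difference 0.26, SE 0.17; limma adjusted p = 1.00). The gene kcnq1 ranged from 11.6 to 20.6 scaled counts, and its highest values were in control libraries 2 and 3.

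Pore-forming calcium channel genes (cacna1) were the largest family, with 12 members. At 3 ppm 10 of 12 and at 10 ppm 9 of 12 had a higher mean than in controls, with medians of 0.11 and 0.23 on the log2 scale. Control library 1, the only control of negative clock score, lay above the 3 ppm mean of scaled counts in several of them. These were cacna1aa, cacna1bb, cacna1c, cacna1ea, cacna1fb and cacna1ha, and in the others it lay below. Summed over the family, the level was 43.4 ± 5.95 FPKM for the control diet, 43.1 ± 3.78 FPKM for 1 ppm, 55.2 ± 3.99 FPKM for 3 ppm and 50.4 ± 7.78 FPKM for 10 ppm (SD, n = 3 each). The skeletal muscle gene cacna1sb (ENSDARG00000042552), the most abundant of the family, had 555, 495 and 699 scaled counts at 3 ppm, against 301, 394 and 327 in controls. All 3 ppm libraries lay above all controls, and the difference of 0.77 (SE 0.36; unadjusted p = 0.0552) did not pass (limma adjusted p = 0.486). The other diets of cacna1sb were wide, with 446, 176 and 464 scaled counts at 1 ppm and 272, 532 and 542 at 10 ppm. Its a copy, cacna1sa, had log2 differences of 0.01, 0.08 and -0.30 at 1, 3 and 10 ppm from control. The summed skeletal muscle markers spanned 89099 to 120910 FPKM at 3 ppm and 89130 to 130730 FPKM in controls and so overlapped; the part of muscle content in the cacna1sb values was not tested.

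Genes of photoreceptor calcium channels, which drive release at ribbon synapses, had a higher mean at 3 ppm for the a copy and not for the b copy, and neither difference passed. The gene cacna1fa (ENSDARG00000010933) had 162, 110 and 130 scaled counts at 3 ppm, against 118, 64.3 and 64.5 in controls. Control library 1 lay inside the 3 ppm range, while controls 2 and 3 lay well under it. The difference of 0.74 (SE 0.29; unadjusted p = 0.0236) did not pass (limma adjusted p = 0.437). It had 96.9, 91.2 and 45.6 scaled counts at 1 ppm and 103, 98.5 and 117 at 10 ppm. Its slope was 0.21 per diet step (SE 0.10), and turned to -0.08 with the clock score as a covariate and -0.02 without the libraries of positive clock score. The b copy, cacna1fb, had 60.4, 76.0 and 79.0 scaled counts at 3 ppm, against 125, 67.8 and 51.1 in controls, with a difference of -0.08. Photoreceptor markers had 12 of 17 members higher at 3 ppm than in controls, 5 lower and 0 called, with a median of 0.18 on the log2 scale. At 10 ppm 5 of these markers were higher and 12 lower, with a median of -0.17, while cacna1fa had a difference of 0.42 (SE 0.29). The summed level of the markers was 8437 to 9548 FPKM at 3 ppm and 5932 to 9485 FPKM in controls. The part of these markers in the cacna1fa values was not tested.

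Calcium channel genes of nerve terminals and heart were not called either. The N-type gene cacna1ba (ENSDARG00000021735) had 90.1, 118 and 113 scaled counts at 10 ppm and 92.9, 111 and 113 at 3 ppm, against 87.9, 86.7 and 73.5 in controls. All 6 libraries lay above all 3 controls, the nearest by a narrow margin, and the differences of 0.36 and 0.35 (SE 0.20 each) did not pass (limma adjusted p = 0.851 and 0.549). The highest value of cacna1ba in any library, 136 scaled counts, was in 1 ppm library 2. The P/Q-type gene cacna1ab is needed at the larval neuromuscular junction. It had 38.8, 94.5 and 72.8 scaled counts at 10 ppm, against 52.7, 43.4 and 35.9 in controls, and the groups overlapped. Its difference of 0.56 (SE 0.35) was the largest of the cacna1 family at 10 ppm against control and did not pass (limma adjusted p = 0.851). The L-type gene cacna1c, needed for the heartbeat of zebrafish embryos, had mean scaled counts of 91.5 ± 18.9 for the control diet, 89.7 ± 26.3 for 1 ppm, 101 ± 16.9 for 3 ppm and 101 ± 6.10 for 10 ppm (SD, n = 3 each), which lie within their spread.

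**Figure D3:**
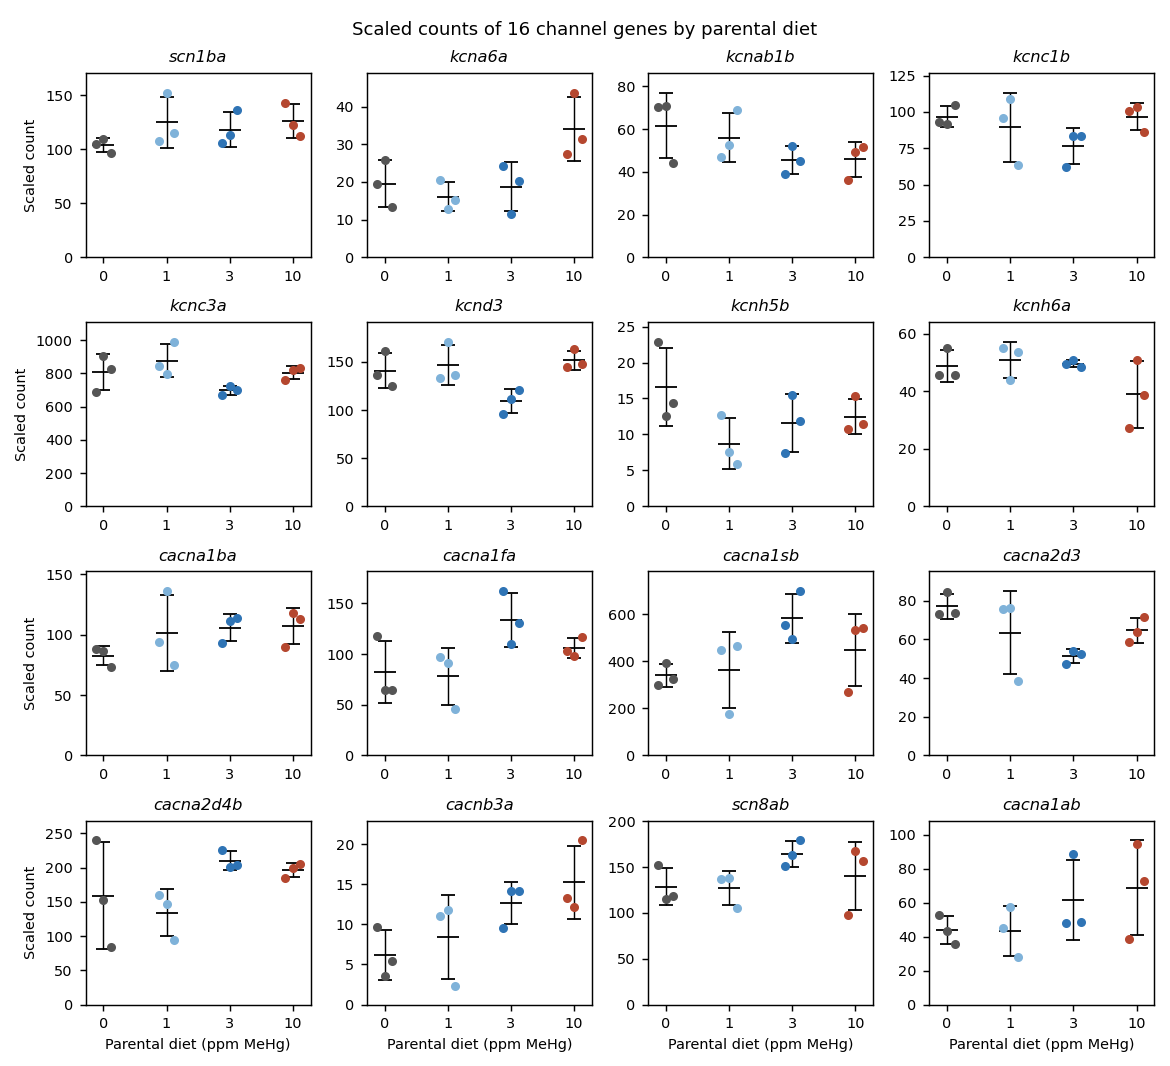
Scaled counts of 16 channel genes by parental diet, with 1 point per library, a horizontal bar for the mean and whiskers of 1 SD (n = 3). In kcnd3 the 3 ppm libraries lie below all others and in kcna6a the 10 ppm libraries lie above all others, while control library 1 (the left point of each control group) lies inside the 3 ppm range in cacna1fa and above all dosed libraries in cacna2d4b.

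Auxiliary calcium channel genes held both the largest difference from control among the members and the narrowest interval. The beta subunit gene cacnb3a (ENSDARG00000001881), the lowest member by scaled count, had 9.67, 3.50 and 5.38 scaled counts in controls, 11.1, 11.8 and 2.34 at 1 ppm, 9.58, 14.2 and 14.1 at 3 ppm, and 13.2, 12.1 and 20.5 at 10 ppm. All 10 ppm libraries lay above all controls, and control library 1 lay just above the lowest 3 ppm library. The log2 difference of 1.24 at 10 ppm (SE 0.50; unadjusted p = 0.0262) did not pass (limma adjusted p = 0.822), nor did the slope of 0.45 per diet step (SE 0.15; unadjusted p = 0.00859; limma adjusted p = 0.370). These are counts of 20.5 or fewer, and 1 ppm library 3 had the lowest. In contrast cacnb1, whose loss paralyses zebrafish larvae, had mean scaled counts of 356 ± 6.97 for the control diet, 364 ± 18.7 for 1 ppm, 345 ± 17.1 for 3 ppm and 372 ± 14.8 for 10 ppm (SD, n = 3 each). Its 95% interval of the difference at 10 ppm, -0.16 to 0.28 on the log2 scale, was the narrowest of the members. The gene cacnb4b likewise stayed between 338 and 476 scaled counts.

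The alpha2delta genes (cacna2d) encode extracellular subunits that carry channels to the membrane. The gene cacna2d3 (ENSDARG00000078760) had 72.9, 84.6 and 73.5 scaled counts in controls, 75.7, 76.0 and 38.6 at 1 ppm, 47.2, 54.1 and 52.5 at 3 ppm, and 58.7, 63.8 and 71.7 at 10 ppm. All 3 ppm and 10 ppm libraries lay below all controls, and all 10 ppm libraries lay above all 3 ppm libraries. The differences were -0.58 (SE 0.23; unadjusted p = 0.0264) at 3 ppm and -0.25 (SE 0.23) at 10 ppm, and neither passed (limma adjusted p = 0.437 and 0.883). The photoreceptor gene cacna2d4b had 226, 200 and 203 scaled counts at 3 ppm and 185, 199 and 205 at 10 ppm, against 240, 153 and 84.2 in controls. Control library 1 lay above all dosed libraries and the other controls below the 3 ppm and 10 ppm ones; its slope of 0.20 per diet step (SE 0.10) turned to -0.08 when the clock score was a covariate. The gene cacna2d1a, the most abundant of the family and active in skeletal muscle, ranged from 360 to 707 scaled counts with overlapping diets. The gene cacna2d2a had 1.40 scaled counts in control library 2 and between 7.73 and 20.6 in the other 11, which gave it the widest interval of the members.

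The channel genes varied between libraries of the same diet. Each gene was set against its own 12-library mean on the log2 scale, and the median of these deviations over the 54 members was taken for each library. The lowest median, -0.40, was that of 1 ppm library 3, followed by -0.22 in control library 3 and -0.14 in 3 ppm library 1. The highest were 0.20 in 10 ppm library 2, 0.19 in 1 ppm library 2 and 0.18 in control library 1. Medians over all tested genes lay between -0.02 and 0.03. The 1 ppm library 3 held the lowest value of 23 of the 54 members, 42.6% of them, against 20.0% of all tested genes. These 23 included the sodium channel genes scn1lab and scn8aa, the potassium channel genes kcna1a, kcnc1a and kcnd2, and the calcium channel genes cacna1aa, cacna1ab, cacna1bb, cacna1c, cacna1fa and cacna1fb.

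That library also held the highest value of 6 members (11.1%, against 15.5% of all tested genes). They were the skeletal muscle genes scn4ab, cacna1sa and cacna2d1a, and kcnc3a, kcnq2a and kcnq5a. Beside this, skeletal muscle markers had a median deviation of 0.36 in 1 ppm library 3 and heart markers one of 0.32, each the highest of all libraries. Neuron markers had one of 0.07 there. This library was also the shallowest. Among members with a mean under 50 scaled counts its median was -0.43, against -0.13 for all genes of that level, and among members with a mean of 50 or more it was -0.38, against 0.03. Among the 28 members in the top quintile of tested genes by implied transcript length it was -0.24, against -0.01 for all genes of that quintile. Among the other 26 members it was -0.57, against -0.0023 for all other tested genes. The part of tissue content and depth in these values was not tested. Without that library the median difference at 1 ppm was 0.07, against -0.04 with it. In 1 ppm library 2 skeletal muscle markers stood at -0.52 and heart markers at -0.25. There cacna1sb, scn4bb and kcnq2a had their lowest values, while 12 members (22.2%, against 7.82% of all tested genes), among them scn8aa, scn1lab and cacna1ba, had their highest. Muscle markers and channel genes had medians of opposite sign in all control and 1 ppm libraries and in 3 ppm libraries 1 and 2. Their signs were the same in 3 ppm library 3 and in all 10 ppm libraries. For example, 10 ppm library 3 had 0.18 and 0.10, while the channel median of 10 ppm library 1 was only -0.0002. This relation was not tested.

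**Figure D4:**
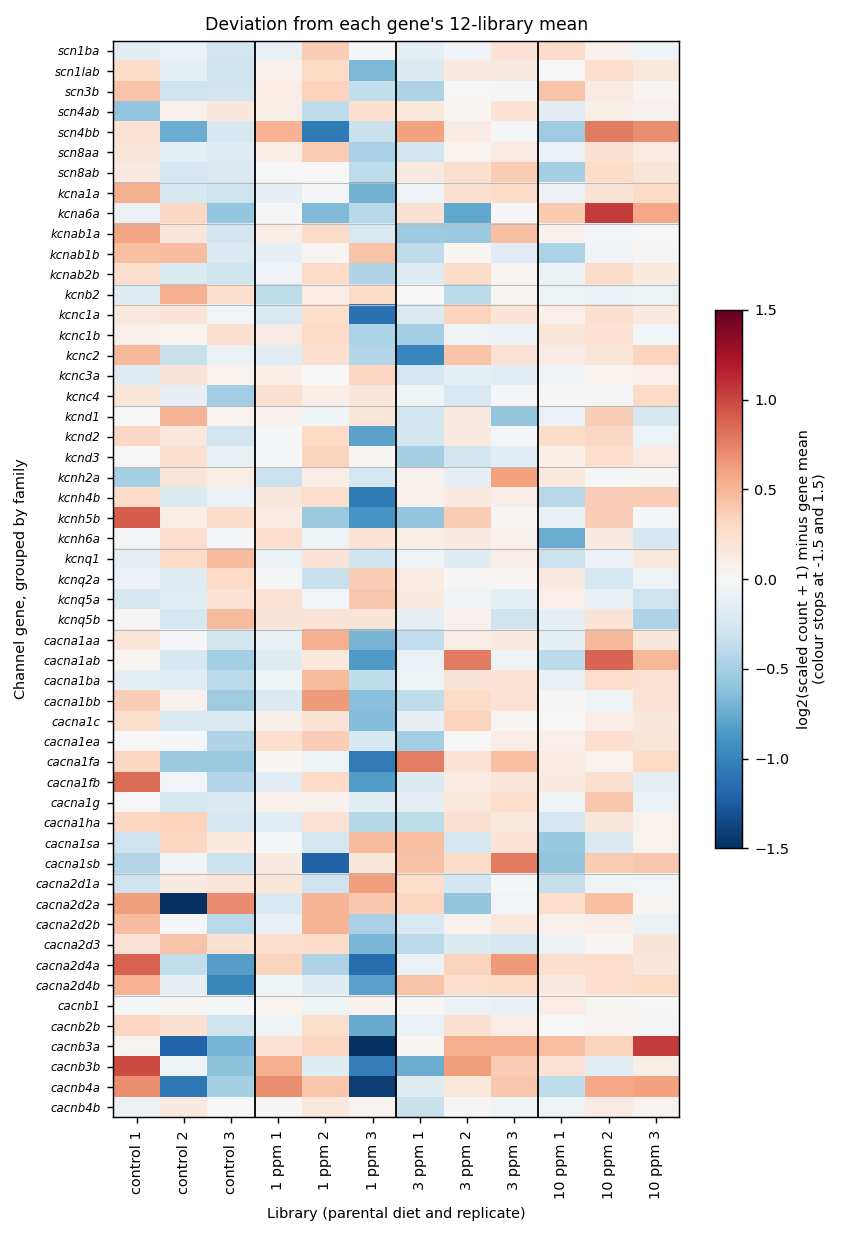
Deviation of 53 channel genes in each library from their own means over the 12 libraries, on the log2(scaled count + 1) scale, with rows grouped by family and columns by parental diet. The column of 1 ppm library 3 is blue for most genes, where it holds the lowest value of 23 of 54, and red for skeletal muscle genes such as scn4ab and cacna2d1a.

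At 3 ppm 24 of 26 neuron markers had a lower mean than in controls, 2 a higher one and 0 were called, with a median of -0.26 on the log2 scale, against a median of 0.02 for the channel genes. Of all tested genes 49.4% were higher. An unadjusted limma p under 0.05 was found for 11 of the 26 markers, all lower, for 3 of the 54 channel genes and for 10.4% of all tested genes. The channel median was -0.17 when the clock score was fitted and -0.19 without the libraries of positive score. The neuron marker median was not recomputed in these settings, so its -0.26 cannot be set beside those values. The difference between the lists was not tested. The summed neuron markers spanned 1702 to 1905 FPKM at 3 ppm and 2083 to 2391 FPKM in controls, with no overlap. At 10 ppm against 3 ppm 24 of 26 were higher and 0 called, with a median of 0.19, and the channel genes had 0.04. There 6 of the markers had an unadjusted limma p under 0.05, all higher, against 2 of the 54 channel genes and 3.77% of all tested genes. The part of neuronal content in the values of the channel genes was not tested. Heart and glial markers had 0 members called in any comparison.

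**Figure D5:**
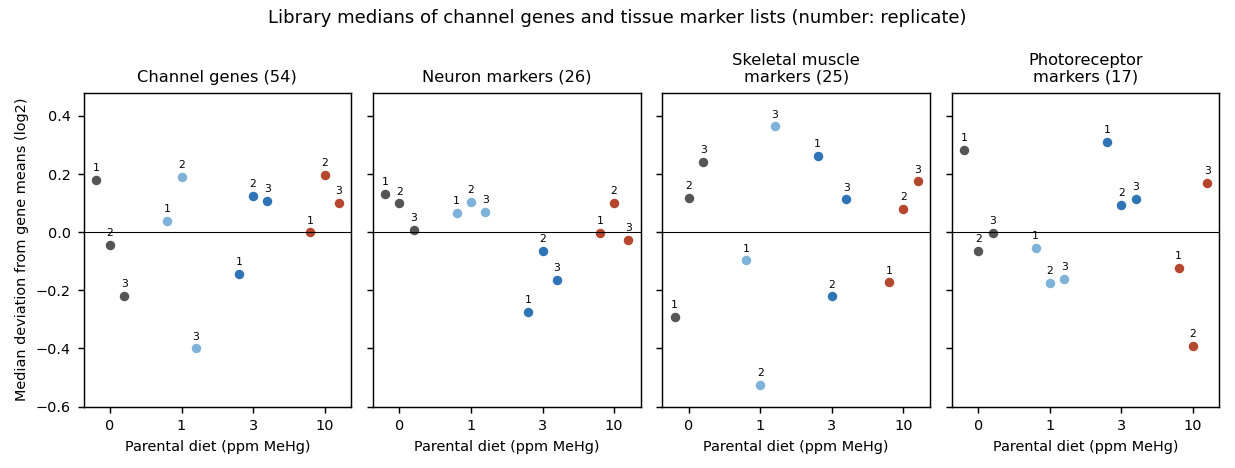
Median deviation of the 54 channel genes and of 3 tissue marker lists in each library (log2 scale, 0 is the 12-library mean of each gene), by parental diet, with the replicate number above each point. The channel median is lowest in 1 ppm library 3 (-0.40), where skeletal muscle markers are highest (0.36), and neuron markers are below 0 in all 3 ppm libraries.

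Other channels and accessory proteins, listed by symbol as partners of the voltage-gated channels, were counted in the same fit. This list held inward rectifier, two-pore-domain, calcium-activated and hyperpolarisation-activated (hcn) channel genes, and genes named as calcium channel gamma subunits (cacng). It also held the Kv4 partners of the kcnip and dpp families, fibroblast growth factor homologous factors, ankyrins, and kcne, kcnf, kcng, kcns, kcnv, kcnt and stac genes. Of 87 such genes 62 were tested, and 0 were called in any comparison. At 1 ppm 29 were higher and 33 lower than in controls (median -0.03 on the log2 scale), at 3 ppm 25 and 37 (median -0.08) and at 10 ppm 36 and 26 (median 0.06). At 10 ppm against 3 ppm 44 were higher and 18 lower, with a median of 0.18.

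The partner genes of smallest p at 3 ppm were kcnj11l, an inward rectifier gene (-0.64, SE 0.19), cacng2a (-0.50, SE 0.16) and cacng8b (-0.41, SE 0.13). None of them passed (limma adjusted p = 0.396 for each). Both cacng genes are listed by name, and whether they act with calcium channels was not examined. The Kv4 partner genes dpp6b (0.37, SE 0.16) and kcnip1b (0.55, SE 0.22) had higher means at 10 ppm than at 3 ppm and did not pass (limma adjusted p = 1.00 for each). This is the direction of kcnd3, and also of 44 of the 62 partner genes. Both were named for an unadjusted limma p under 0.05, and the other tested Kv4 partners are not reported here. The potassium channel gene kcnk1a had a difference of 0.53 (SE 0.17) at 10 ppm from control and cacng6a one of 0.50 (SE 0.19), with limma adjusted p = 0.714 and 0.822.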

How the data were processed

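Per the labels' protocols, the authors made TruSeq libraries from pooled whole embryos and read paired ends. The submitters' processing notes name CASAVA 1.8.2, FastQC, cutadapt, Cuffnorm, TopHat and the build Zv9; settings and gene annotation were not given in the sources used here. As deposited, the count table is a scaled signal: the authors divided fragment counts by a size factor per library, as the values show (98.1% to 98.8% of those under 40 are whole multiples of a library's step, tolerance 0.02 steps). The deposited FPKM table, scaled by the authors for transcript length and library total, was used for levels between genes. How fragments of near-identical a and b copies were shared depends on the authors' counting.

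Differences came from limma 3.58.1 (R 4.3.3) on log2(scaled count + 1) over 18390 genes (mean 10 or more), fitted to the 12 libraries at once with trend and robust options, after it was tested on simulated data. P-values are two-sided and adjusted over all tested genes by Benjamini-Hochberg, with a threshold of 0.05. This scale understates differences of low genes. The plan held a second version for raw counts, which these are not, and 2 count-model alternatives were not run because whole fragments could not be recovered for all values. The slope used the rank of the diet. The members, lists and named genes were chosen with earlier results of these data known. Named were the 6 members of smallest p in each comparison, the member of highest mean FPKM in each family, members near the minimum and members with zebrafish mutants. Other genes were named after their values were seen. Python 3.11.15, pandas 2.3.3 and matplotlib 3.10.9 made the tables and figures. Values of some genes are not reported here, and neither sequences nor coordinates are given.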

Additional observations from a re-analysis of the deposited data

How the results depend on the processing

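In 28 other settings (other filters, pseudocounts of 5, FPKM with 0.1 or 1 added, trimmed mean and median-of-ratios rescaling, limma-voom, library weights, only the diets compared, other dose scales, the clock score, and without each library) 0 members were called in any comparison, and the smallest adjusted p among 36 results of single genes (the members of smallest p) was 0.0584 (cacna1fa at 3 ppm with library weights, 0.81). The most calls over all 18390 tested genes came with library weights and without control library 1. Library weights called 238 at 3 ppm against control, 38 at 10 ppm against control and 101 for the slope. Without control library 1 these were 17, 41 and 146. The remaining controls have positive clock scores and all 3 ppm and 10 ppm libraries negative ones, so diet and score cannot be told apart in these calls. The setting of limma-voom on recovered fragments was chosen after seeing the data. The edgeR and DESeq2 alternatives were not run. With the replicate number as a block 0 members and at most 4 of all tested genes were called, and the medians were the same. Of 18 same-numbered pairs, 6 had a correlation of deviations over 0.1 (range -0.23 to 0.47). Pairs of different number reached 0.27. The deviations are taken from means of 3 libraries that differ in clock score, so these values cannot decide whether the numbers pair the samples. Without the 4 libraries of positive clock score the members' median was -0.19 at 3 ppm and -0.12 at 10 ppm against control; cacna2d3 at 1 ppm turned to 0.053 (1 library against 1), and the slopes of cacna1fa and cacna2d4b turned to -0.021 and -0.035. Fitted beside the clock score, those slopes were -0.079 and -0.077. Of 924 values of those 36 results under other settings, these 5 turned direction; other printed values of single genes were not recomputed. Medians without 1 library ran from -0.15 to 0.07 at 1 ppm, -0.06 to 0.11 at 3 ppm, 0.05 to 0.25 at 10 ppm and -0.03 to 0.12 at 10 ppm against 3 ppm. The 1 ppm median turned to 0.05 without control 1 and 0.07 without 1 ppm library 3, and was 0.06 with library weights and 0.02 with limma-voom on recovered fragments (0.03 over all tested genes). That of 3 ppm turned to -0.06, -0.01 and -0.02 without control 3, 3 ppm library 2 and 3 ppm library 3. That of 10 ppm against 3 ppm turned to -0.03 and -0.01 without 3 ppm library 1 and 10 ppm library 2, and was -0.04 with limma-voom on recovered fragments, which gave -0.06 over all tested genes. Without 1 library, members whose libraries did not overlap numbered 2 to 4 at 1 ppm (12.2% to 17.4% of all tested genes) and 6 to 21 at 3 ppm (24.5% to 39.6%). They numbered 7 to 24 at 10 ppm (15.8% to 34.7%) and 8 to 15 at 10 ppm against 3 ppm (18.5% to 23.2%). With all libraries kept, other filters and scalings gave 4 to 6 at 10 ppm against control. They gave 4 to 7 at 10 ppm against 3 ppm, with 4 under median-of-ratios rescaling. Shares over all tested genes were not computed for these settings, so their counts cannot be read against all genes. Depth limits the members of low count, such as cacnb3a and kcnh5b, most.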
